A study of Mus musculus with 15 samples.

Results

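Rab GTPases are small membrane-bound switches of the Ras superfamily, and the 42 analysed here are all the genes of the family that gave a signal above background in mouse bone marrow-derived macrophages at rest, after an interferon, after bacterial lipopolysaccharide (LPS), or after both. They were taken by gene symbol (Rab followed by a number, with or without a letter, so that Rab effectors and regulators with longer names were left out), with 1 probe per gene, the probe of highest mean signal. The array table held 51 such symbols among 10900, and 42 of them were among the 7669 genes tested. A gene was tested where its probe had a detection p below 0.01 on every array of at least 1 group. The 9 family members below that filter were Rab15, Rab17, Rab20, Rab23, Rab27b, Rab30, Rab33a, Rab37 and Rab3b. Of the 42, 32 were detected on all 15 arrays. Rab39 passed only through the IFNγ group and Rab40b only through the IFNβ plus LPS group, so that a high value there was in part required of them.

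The macrophages were grown from bone marrow of specific pathogen-free C57Bl/6 mice, and total RNA was hybridised to Illumina bead arrays, 1 array per sample. The 6 groups were untreated cells (control, n = 3), cells given interferon gamma (IFNγ, n = 3) or interferon beta (IFNβ, n = 2) for 18 h, cells given ultrapure E. coli LPS for 6 h (n = 2), and cells given IFNγ (n = 3) or IFNβ (n = 2) for 18 h and then LPS for 6 h. The study set out to learn how priming with IFNγ alters the response to LPS. The labels give no dose for the interferons and no age or sex of the mice, and nothing in them says that replicates are separate cultures or animals. A p-value here is thus a measure of array-to-array spread, part or all of which may be technical.

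A Rab protein is carried to its membrane by a GDP dissociation inhibitor, is switched on there by a guanine nucleotide exchange factor, recruits effectors such as tethers and motors while GTP is bound, and is switched off by a GTPase-activating protein. Different Rab proteins mark different compartments: the endoplasmic reticulum and Golgi, early and recycling endosomes, late endosomes and lysosomes, and secretory granules. In macrophages they govern how phagosomes mature, how Toll-like receptors reach and leave the cell surface, and how antigen and cytokines are moved.

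Levels below are log2 intensities after background correction and quantile normalisation. A probe's brightness depends on its sequence, so levels are compared between groups for a gene and not between genes. A difference was called at a Benjamini-Hochberg adjusted p below 0.05 over the 7669 genes, in limma's moderated test fitted to all 15 arrays, and every adjusted p below is from that fit. The median raw intensity per array ranged from 143.4 to 240.9, and 9342 to 11047 of 15978 probes were detected per array. The number of arrays limits the precision. All 7 arrays of LPS-treated cells were on one slide and all 8 others on a second slide, which leaves an effect of LPS and one of slide that cannot be told apart, whereas each interferon was compared within a slide. Array 1 of the IFNγ plus LPS group stood apart: over 270 genes outside the Rab family that separated its companions from the LPS group, it lay a median 0.53 of the way. Results for that group are therefore given with and without it. IFNγ array 1 had the lowest estimated array weight of the 15 (0.32, with IFNγ plus LPS array 1 next at 0.39), although over 332 such genes it lay a median 1.02 of the way from the controls to its companions. The 6 macrophage markers tested (Adgre1, Itgam, Mertk, Fcgr1, Lyz2 and Cd14) were detected on every array, except that 1 of them was not detected on every array of the IFNγ plus LPS group. Their mean level ranged from 11.08 to 12.13 between groups. The 3 dendritic cell markers tested (Clec9a, Batf3 and Ccr7) averaged 5.41 in controls, 6.46 with IFNγ and 7.08 with IFNγ plus LPS. The 6 neutrophil markers averaged 7.21 to 7.67 in every group. Of T and NK cell markers only Cd28 was tested, at 11.52 in controls, 9.64 with IFNγ and 7.90 with LPS, and no fibroblast or mast cell marker was. The 2 B cell markers tested (Cd79b and Blnk) averaged 8.31 in controls and 7.42 to 8.41 over the groups. Klf1, the 1 erythroid marker tested, was at 5.02 to 5.65. The part of these lists in the results was not tested, and in RNA from whole cultures, fewer cells of a type and less RNA per cell cannot be told apart.

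Start-site sequence is shown first for the 4 Rab genes that rose most with IFNγ, because interferons act on promoters through the transcription factor families STAT and IRF. The windows, from RefSeq on mouse build GRCm38.p6, run from 250 bases before a gene's start site to 50 bases after it, and for a gene with several start sites the most upstream window is printed. They are Rab43 at chr6:87812115-87812414 on the minus strand (1 of 4 windows), Rab27a at chr9:73044560-73044859 on the plus strand (1 of 2), Rab19 at chr6:39381103-39381402 on the plus strand (its single window) and Rab13 at chr3:90213465-90213764 on the plus strand (1 of 2). Capitals mark matches, on either strand, to the gamma-activated site pattern TTCNNNGAA and to the interferon-stimulated response element pattern, GAAA followed after any 2 bases by a second GAAA.
Rab43: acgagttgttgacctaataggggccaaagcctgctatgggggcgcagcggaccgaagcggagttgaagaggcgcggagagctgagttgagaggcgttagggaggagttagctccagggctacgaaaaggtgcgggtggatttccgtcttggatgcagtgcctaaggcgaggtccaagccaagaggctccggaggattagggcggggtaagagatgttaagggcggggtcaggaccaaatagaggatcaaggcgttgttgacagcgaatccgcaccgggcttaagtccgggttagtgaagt
Rab27a: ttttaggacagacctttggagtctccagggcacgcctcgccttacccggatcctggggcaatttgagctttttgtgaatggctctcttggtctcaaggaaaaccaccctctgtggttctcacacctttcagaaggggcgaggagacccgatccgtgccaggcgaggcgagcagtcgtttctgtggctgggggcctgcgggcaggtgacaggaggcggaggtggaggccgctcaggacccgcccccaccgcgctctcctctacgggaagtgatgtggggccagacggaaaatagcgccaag
Rab19: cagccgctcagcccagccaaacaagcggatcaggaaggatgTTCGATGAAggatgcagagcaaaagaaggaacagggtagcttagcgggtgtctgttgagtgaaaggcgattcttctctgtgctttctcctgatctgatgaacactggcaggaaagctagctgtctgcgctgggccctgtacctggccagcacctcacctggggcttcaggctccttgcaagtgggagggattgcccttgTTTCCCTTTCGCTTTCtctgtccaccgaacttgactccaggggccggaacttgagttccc
Rab13: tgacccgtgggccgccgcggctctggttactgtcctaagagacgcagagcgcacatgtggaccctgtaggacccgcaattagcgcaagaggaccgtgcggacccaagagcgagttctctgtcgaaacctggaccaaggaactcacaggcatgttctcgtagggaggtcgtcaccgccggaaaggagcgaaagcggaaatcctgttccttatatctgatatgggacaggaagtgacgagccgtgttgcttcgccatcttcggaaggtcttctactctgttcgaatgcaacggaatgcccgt

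Only the Rab19 window held either pattern among these 4. Its TTCGATGAA began 209 bases before the start site, and TTTCCCTTTCGCTTTC, which reads as 2 overlapping response elements on the opposite strand, began 10 bases before it. Over the family, 37 of 42 members had at least 1 window in the RefSeq table, 45 windows in all. The response element pattern was in 1 of the 45 (2.22%, that of Rab19), against 3.44% of 32851 windows of all genes. The gamma-activated site pattern was in 3 (6.67%, in Rab11a, Rab19 and Rab34), against 8.3% of all windows. A consensus κB site was in 1 (2.22%, in Rab28), against 4.51%. A match is a stretch of letters and was not tested as a site. Rab4a, Rab38 and Rab7b, described below, had no window in the table.

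IFNγ alone raised 7 Rab genes and lowered 9, and the rises were led by Rab43, Rab27a, Rab19 and Rab13, at 2.46-fold to 4.67-fold. Among the falls, Rab4a was no longer detected. This made 38.1% of the 42, where 26.1% of all genes tested were called (11.5% higher and 14.5% lower). Without IFNγ array 1, 5 were called higher and 7 lower (28.6%, against 22.1% of all genes), and Rab38, Rab3d, Rab40c and Rab1a were no longer called. The median difference was -0.12 over the members and -0.07 over all genes. Of the 12 members placed at the endoplasmic reticulum and Golgi, 2 rose and 3 fell. Of the 4 of lysosome-related organelles, 3 rose and none fell, whereas of the 11 of recycling and surface delivery, 1 rose and 3 fell.

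Rab43, which acts at the Golgi and is needed in mouse dendritic cells for cross-presentation of antigen, had levels of 6.71, 6.47 and 6.13 on the control arrays and 8.87, 8.32 and 8.78 on the IFNγ arrays. Every IFNγ array was far above every control. The rise was 2.22 ± 0.23 (SE), or 4.67-fold (adjusted p = 5.78e-06). Its other probes on the array did not pass the filter, being detected on 1 array and on 0 arrays. All values for Rab43 thus rest on 1 probe.

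Rab27a, which docks secretory lysosomes and exosome-bearing compartments for release, had levels of 6.30, 5.92 and 6.32 in controls and 7.83, 7.74 and 8.13 with IFNγ. The groups did not overlap, and the rise was 1.72 ± 0.29 (SE), 3.29-fold (adjusted p = 0.000566). Rab38 and Rab32, a pair that builds lysosome-related organelles such as melanosomes, rose by 0.88 (adjusted p = 0.0181) and 0.51 (adjusted p = 0.00514). Rab32 had levels of 11.74 to 11.84 in controls and 12.18 to 12.44 with IFNγ, with no overlap. The call for Rab38 ended when control array 2 (adjusted p = 0.0861) or IFNγ array 1 (adjusted p = 0.0693) was left out, and its second probe gave 0.36 (adjusted p = 0.373).

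Rab19, a Golgi-associated member, had levels of 6.97, 6.83 and 6.80 in controls and 8.65, 8.43 and 8.66 with IFNγ. The IFNγ arrays were again all above the controls, by 1.71 ± 0.30 (SE), 3.28-fold (adjusted p = 0.000679). Its second probe rose by 1.09 (adjusted p = 0.0034). Rab13, which carries cargo to the plasma membrane and to cell junctions, had levels of 6.29, 6.95 and 6.72 in controls and 7.86, 8.04 and 7.96 with IFNγ. It rose by 1.30 ± 0.22 (SE), 2.46-fold (adjusted p = 0.000515), without overlap, and its second probe rose by 1.94 (adjusted p = 2.72e-05). The remaining riser was Rab3d, of regulated secretion, at 0.47 (adjusted p = 0.0436), a call that ended without any one of the control or IFNγ arrays.

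**Figure D1:**
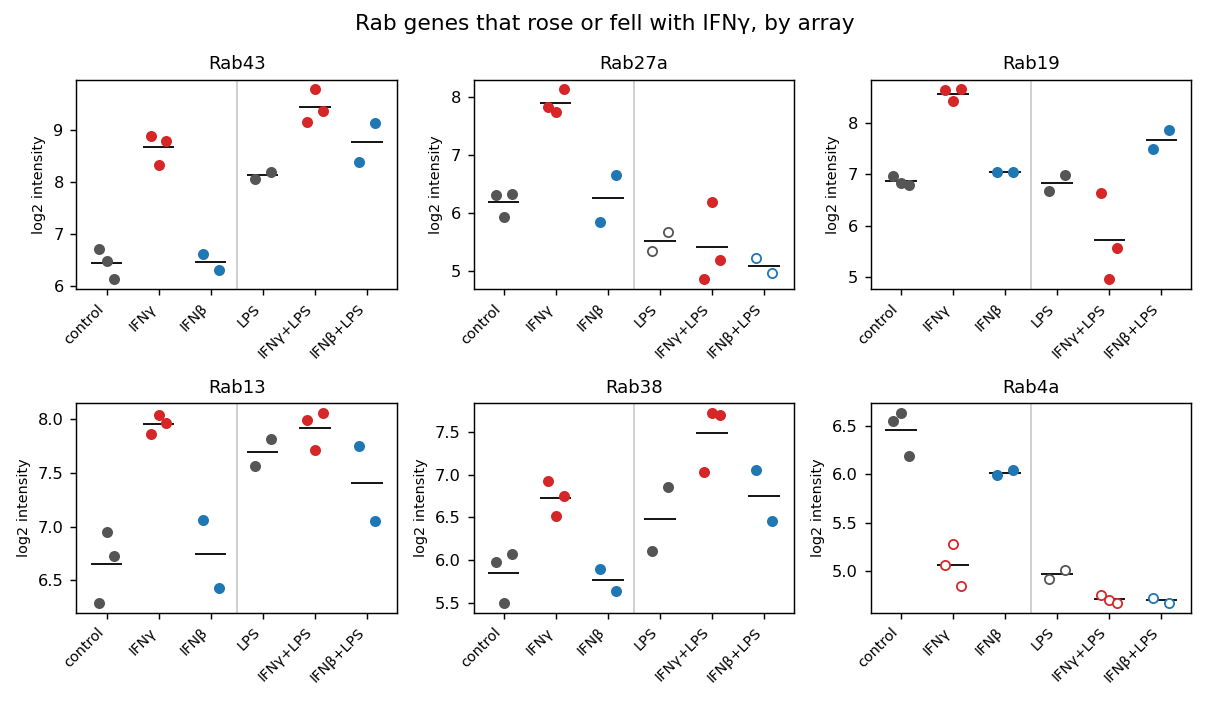
Log2 intensity of 6 Rab genes on each of the 15 arrays, by treatment, each panel with its own axis. Points are arrays and short lines group means. Open points mark groups in which no array had a detection p below 0.01, and the vertical line parts arrays without and with LPS. The IFNγ arrays lie above the controls for Rab43, Rab27a, Rab19, Rab13 and Rab38 and below them for Rab4a. Rab19 is at its lowest with IFNγ plus LPS.

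Among the members that fell with IFNγ, Rab4a, which returns receptors from early endosomes to the surface, was detected on every control array, at 6.55, 6.64 and 6.19, and on no IFNγ array, where its values were 5.06, 5.28 and 4.85. It was at least 1.87-fold lower (adjusted p = 5.37e-06). Such a bound sets the group's mean against the lowest signal above background on the arrays where the probe was not detected.

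Rab6b, a Golgi isoform of Rab6, had levels of 6.21, 6.46 and 6.64 in controls and 5.67, 5.61 and 5.39 with IFNγ, where it was detected on 1 of the 3 arrays. It fell by 0.88 on the log2 scale (adjusted p = 0.00695), with no overlap. Rab40c, which has a SOCS box that binds a ubiquitin ligase, had levels of 10.79, 10.53 and 10.69 in controls and 9.52, 10.00 and 10.07 with IFNγ. The groups did not overlap, and it fell by 0.81 (adjusted p = 0.0187), but the call ended without IFNγ array 1 (-0.63, adjusted p = 0.0853), control array 1 (adjusted p = 0.0684) or control array 3 (adjusted p = 0.0552).

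Rab31, of transport between the Golgi and early endosomes, had levels of 12.94, 12.77 and 13.01 in controls and 12.21, 12.39 and 12.33 with IFNγ. It fell by 0.60 ± 0.12 (SE) on the log2 scale (adjusted p = 0.00223), without overlap. The other members called lower were Rab14 (-0.58), Rab34 (-0.52), Rab1b (-0.49), Rab8b (-0.47) and Rab1a (-0.39). These are regulators of Golgi-to-endosome transport, phagosome and lysosome positioning, export from the endoplasmic reticulum (Rab1a and Rab1b) and delivery to the surface. All 5 calls ended in at least 1 alternative. With cyclic loess in place of quantile normalisation the family split 8 up and 5 down, and all genes 1090 up and 858 down in place of 885 and 1115. Rab8b, Rab34, Rab1a and Rab1b were then not called.

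The 26 members not called ranged from -0.45 to 0.68, and for 24 of them the 95% confidence interval lay within 1 log2 unit of 0. The largest among them was Rab39, at 0.68 (adjusted p = 0.0554). It passed the filter only through the IFNγ group, so a high value there was in part required. Rab10, which brings Toll-like receptor 4 to the surface of mouse macrophages, was at 9.21 on IFNγ array 1 and at 7.97 and 7.95 on the others. The controls were at 7.86 to 7.89, so 1 array of the 3 carried its difference of 0.50 (adjusted p = 0.223). Rab7, the switch of late endosomes and lysosomes, was at -0.17 by its brightest probe, while another of its probes was at -0.63 (adjusted p = 0.0162).

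IFNβ alone gave no call among the 42 members in limma's test, where 1.12% of all genes were called. In that test 3 of the 42 members had an unadjusted p below 0.05, as had 631 of all 7669 genes. The differences ranged from -0.44 to 0.53 with a median of 0.02, and every 95% confidence interval lay within 1 log2 unit of 0. The largest were Rab32 at 0.53 (95% interval 0.25 to 0.81, adjusted p = 0.0886) and Rab3d at 0.53 (0.14 to 0.91, adjusted p = 0.336). Rab32 had levels of 12.41 and 12.24 with IFNβ, both above the controls. The next were Rab4a at -0.44 and Rab6a, of transport within and back from the Golgi, at -0.35.

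Set directly against IFNβ, IFNγ gave 5 members higher and 8 lower, 31% of the family, where 20.5% of all genes were called (9.57% higher and 11.0% lower). Rab43 was at 6.62 and 6.31 with IFNβ, Rab27a at 5.84 and 6.66, and Rab19 at 7.06 and 7.05. All of these arrays were below every IFNγ array for the gene, by 2.20 (adjusted p = 3.29e-05), 1.65 (adjusted p = 0.0025) and 1.53 (adjusted p = 0.00489). Rab13 (1.21) and Rab38 (0.96) were the other members higher with IFNγ. The members lower with IFNγ than with IFNβ were Rab4a (at least 1.37-fold), Rab14, Rab8b, Rab11b, Rab34, Rab8a, Rab2a and Rab31, with differences of -0.73 to -0.44 for the 7 that were detected in both groups. Of these 7, Rab11b, Rab8a and Rab2a, of recycling endosomes, exocytosis and the Golgi, were not called against control. With cyclic loess the split was 5 higher and 3 lower. Rab43, Rab19 and Rab4a were called in every alternative that tested them, 17 for Rab43 and 16 each for Rab19 and Rab4a. The calls of Rab27a and Rab13 were each lost in 1 alternative. These were the fits without IFNβ array 1 for Rab27a (1.24) and without IFNβ array 2 for Rab13 (0.90), with 1 IFNβ array left. Rab32 and Rab3d did not differ detectably between the interferons, at -0.02 (95% interval -0.31 to 0.26) and -0.06 (-0.44 to 0.32).

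**Figure D2:**
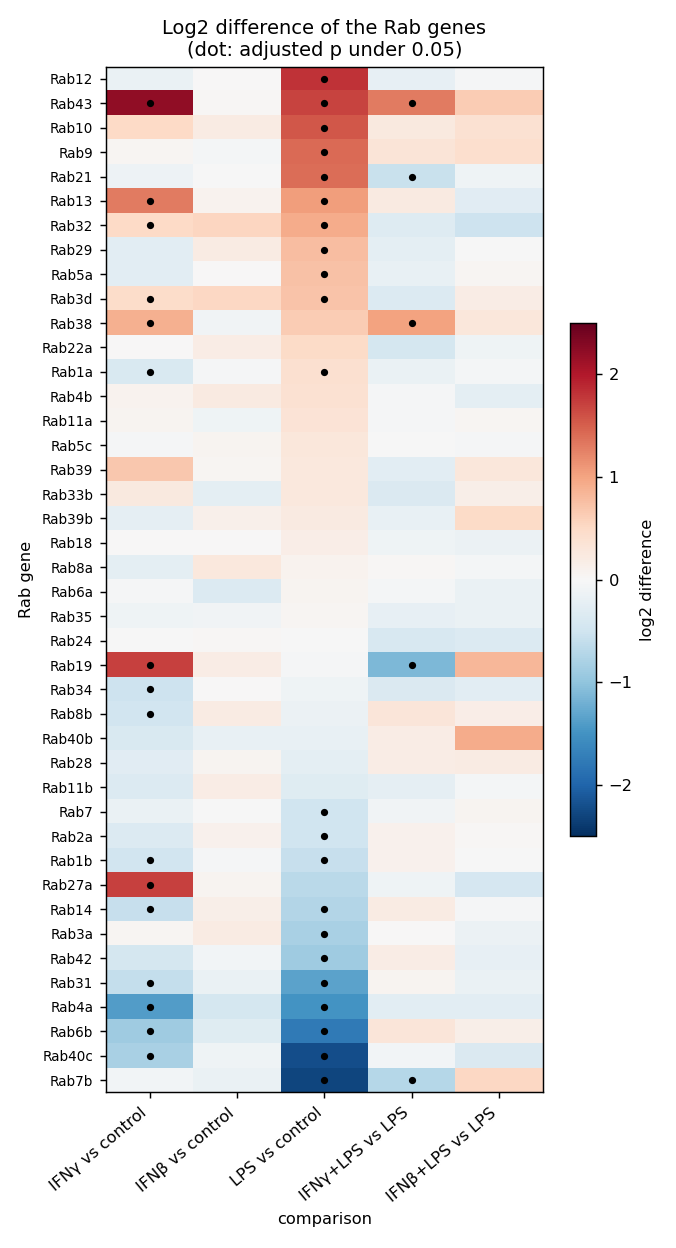
Log2 difference of the 42 Rab genes (rows, ordered by the LPS column) in the 5 comparisons of a treated group with its control (columns). Red is higher and blue lower in the treated group, and a dot marks an adjusted p below 0.05. The first 2 columns share the control arrays with the third, and the last 2 share the LPS arrays. IFNγ has 16 dots, LPS 22, IFNγ plus LPS 5 and both IFNβ columns none.

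LPS alone raised 11 Rab genes and lowered 11. That was 52.4% of the family, close to the 55.2% of all genes that were called (21.2% higher and 34.0% lower), so the share by itself sets the family apart in no way. The median was 0.08 over the members and -0.18 over all genes. The all-gene median moved to -0.01 with cyclic loess and to -0.04 with median scaling, and the family then split 18 up and 9 down, or 15 up and 7 down, while all genes split 1969 up and 2027 down, or 1898 up and 2143 down. Small falls with LPS are therefore read against that shift.

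Early endosome members had 2 rises (Rab21 and Rab5a) and 1 fall (Rab31) among 5. Recycling and surface members had 3 rises (Rab12, Rab10 and Rab13) and 2 falls (Rab14 and Rab4a) among 11. Those of late endosomes and lysosomes had 1 rise (Rab9) and 2 falls (Rab7b and Rab7) among 5, and those of lysosome-related organelles had 2 rises (Rab32 and Rab29) among 4. Members of the endoplasmic reticulum and Golgi had 2 rises (Rab43 and Rab1a) and 4 falls (Rab6b, Rab42, Rab1b and Rab2a) among 12.

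Rab12, which sends the transferrin receptor from recycling endosomes to lysosomes, had levels of 8.90, 8.94 and 9.09 in controls and 10.79 and 10.78 with LPS. The groups were far apart, and the rise was 1.81 ± 0.15 (SE), 3.50-fold (adjusted p = 1.52e-07). Rab43 reached 8.05 and 8.19 with LPS, above every control array, a rise of 1.69 (3.22-fold, adjusted p = 7.8e-05).

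Rab10 had levels of 7.89, 7.88 and 7.86 in controls and 9.27 and 9.59 with LPS. It rose by 1.55 ± 0.31 (SE), 2.93-fold (adjusted p = 0.000816), and its second probe rose by 2.32 (adjusted p = 6.86e-07). Rab9, which retrieves receptors from late endosomes to the Golgi, had levels of 8.57, 8.66 and 8.55 in controls and 9.86 and 10.17 with LPS, with no overlap. The rise was 1.42 (2.68-fold, adjusted p = 6.32e-06). The remaining called rises were Rab21, of integrin endocytosis (1.39), Rab13 (1.04), Rab32 (0.92), Rab29, which recruits the kinase LRRK2 to membranes (0.78), Rab5a, of early endosome fusion (0.73), Rab3d (0.70) and Rab1a (0.41). Of these, Rab3d and Rab1a were not called without LPS array 1 (adjusted p = 0.0669 and 0.147).

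Among members still detected with LPS, the largest fall was that of Rab7b, a late endosome and Golgi member known to dampen Toll-like receptor signalling in mouse macrophages. It had levels of 11.88, 12.17 and 11.95 in controls and 9.38 and 10.05 with LPS. No LPS array approached the controls, and the level fell by 2.29 ± 0.22 (SE) on the log2 scale, 4.88-fold (adjusted p = 7.21e-07). Over the 6 group means Rab7b had the widest measured range of the 42 members, 2.99 log2 units (values below background being taken as they stand), and Rab18, of the endoplasmic reticulum and lipid droplets, the narrowest, 0.17.

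Rab40c had levels of 8.63 and 8.29 with LPS, below all controls. It fell by 2.21 (4.63-fold, adjusted p = 5.9e-06). Rab6b was at 4.66 and 4.69 and Rab4a at 4.93 and 5.01 with LPS, neither detected on any LPS array. They were at least 1.64-fold (adjusted p = 2.55e-05) and at least 1.66-fold lower (adjusted p = 2.81e-06) than in controls, where both were detected throughout. Rab42 was likewise not detected with LPS and at least 1.16-fold lower (adjusted p = 0.0137).

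Rab31 fell by 1.34 on the log2 scale (adjusted p = 1.59e-06). The other called falls were Rab3a, of synaptic and granule exocytosis (-0.82), Rab14 (-0.73), Rab1b (-0.58), Rab2a (-0.51) and Rab7 (-0.51). The fall of Rab3a rested on LPS array 2, at 5.38 against 6.42 on array 1. Without it the difference was -0.30 (adjusted p = 0.442). Rab2a and Rab7 were not called with cyclic loess (adjusted p = 0.246 and 0.305) or median scaling (adjusted p = 0.789 and 0.991), and 1 of 2 further probes of Rab7 was at 0.19. Rab14 was not called with median scaling (-0.28, adjusted p = 0.249). Rab1b was not called without LPS array 2 (-0.44, adjusted p = 0.109), nor Rab42 (-0.56, adjusted p = 0.18) or Rab2a (-0.33, adjusted p = 0.136) without LPS array 1.

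Of the 20 members not called, Rab27a was detected on all controls and on no LPS array, with a ratio of controls to LPS of at least 1.38 (adjusted p = 0.0978), and Rab38 was the highest, at 0.63 (adjusted p = 0.0703). Rab22a, of early endosomes, and Rab4b, of recycling endosomes, followed at 0.48 and 0.38. The second probe of Rab38 went the other way, at -0.32 (adjusted p = 0.393). Rab8a was at 0.09 by its brightest probe, while its second probe rose by 0.92 (adjusted p = 0.000446).

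**Figure D3:**
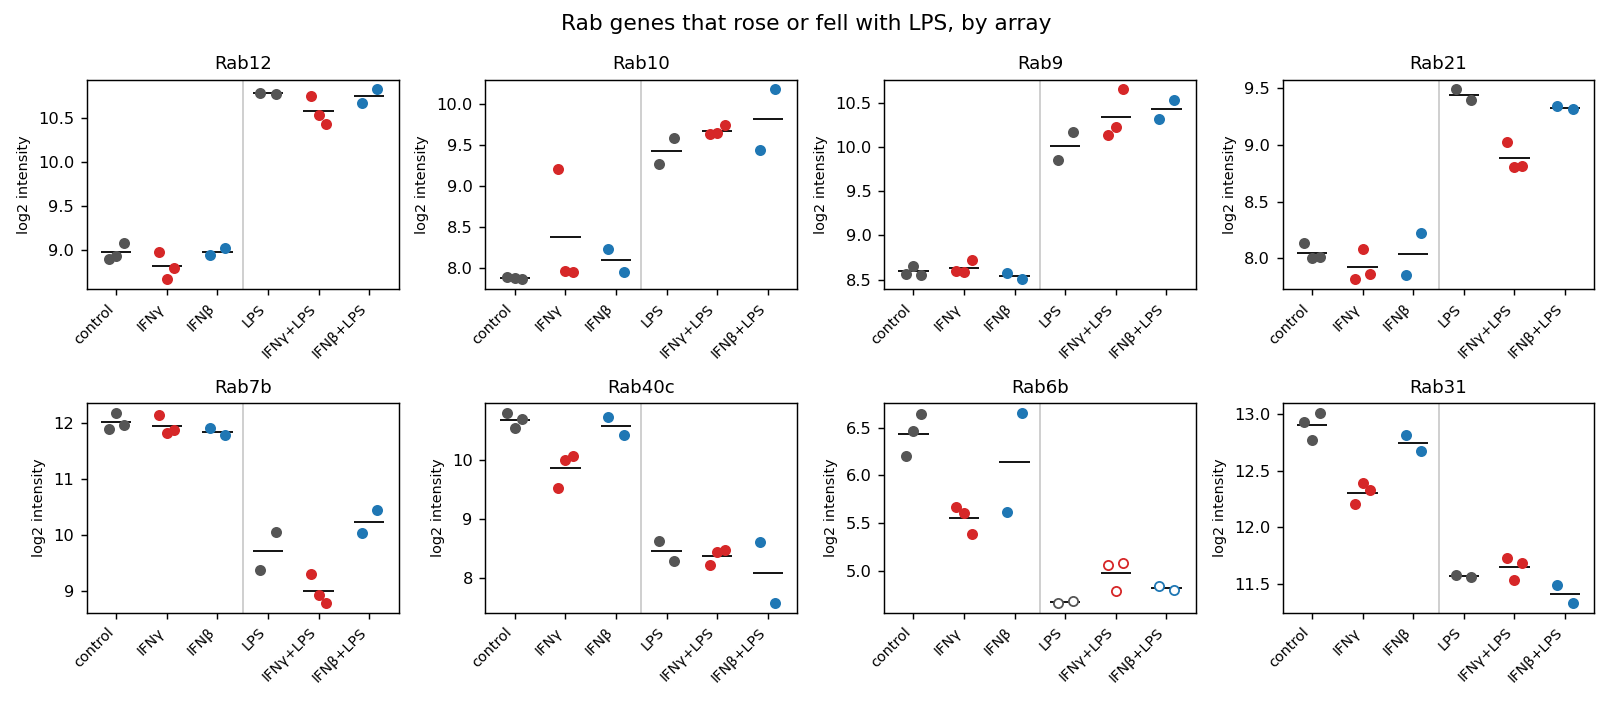
Log2 intensity of 8 Rab genes on each of the 15 arrays, by treatment, each panel with its own axis. Points are arrays, short lines group means, and open points groups in which no array had a detection p below 0.01. Arrays with LPS, right of the vertical line, lie above those without it for Rab12, Rab10, Rab9 and Rab21 and below them for Rab7b, Rab40c, Rab6b and Rab31. For Rab10, IFNγ array 1 lies close to the lowest LPS array.

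Priming with IFNγ before LPS changed 5 members against LPS alone, Rab43 and Rab38 higher and Rab19, Rab7b and Rab21 lower. This was 11.9% of the family, where 12.8% of all genes were called (6.81% higher and 5.96% lower). The median difference was -0.09 over the members and -0.03 over all genes. Without array 1 of the primed group, 8 members were called, 2 higher and 6 lower, with Rab24, Rab33b and Rab3d added as lower (-0.52, -0.55 and -0.51). That was 19.0% of the family, where 19.7% of all genes were called in the same fit.

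Rab43 had levels of 8.05 and 8.19 with LPS and 9.14, 9.77 and 9.36 with IFNγ plus LPS, the highest of any group. The primed arrays were all above the LPS arrays, by 1.30 ± 0.26 (SE), 2.46-fold (adjusted p = 0.00525), and by 1.44 without array 1 (adjusted p = 0.00249). The call ended when LPS array 1 was left out (1.23, adjusted p = 0.0534). Rab38 was at 6.10 and 6.86 with LPS and at 7.03, 7.73 and 7.71 after priming. It was higher by 1.01 (adjusted p = 0.0296), or by 1.24 without array 1 (adjusted p = 0.00692), without overlap. Without LPS array 1, the lower of that pair, the difference was 0.63 (adjusted p = 0.288).

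Rab19 went the other way. It was at 6.68 and 6.99 with LPS and at 6.64, 4.95 and 5.56 with IFNγ plus LPS, where it was detected on 1 of 3 arrays. Array 1, the array that stood apart, was just below the LPS arrays and the other pair far below. It fell by 1.12 ± 0.34 (SE) on the log2 scale (adjusted p = 0.0421), and fell by 1.58 without array 1 (adjusted p = 0.000154). Leaving out array 2 instead gave -0.73 (adjusted p = 0.135). The second probe of Rab19 gave -0.74 and was not called (adjusted p = 0.0843).

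Rab7b was at 9.30, 8.94 and 8.78 after priming, all below the LPS arrays at 9.38 and 10.05. It fell by 0.71 below LPS alone (adjusted p = 0.0463), or fell by 0.85 without array 1 (adjusted p = 0.0155). Without LPS array 2 the difference was -0.37 (adjusted p = 0.4). Rab21 was at 9.49 and 9.40 with LPS and at 9.02, 8.80 and 8.82 after priming, with a difference of -0.56 (adjusted p = 0.0251) and no overlap, or of -0.63 without array 1 (adjusted p = 0.0133). Each of these 5 calls was lost when some single array was left out, and fitted on the LPS slide alone, only Rab43 was called. The 37 members not called ranged from -0.44 (Rab22a) to 0.33, with Rab24, which takes part in autophagy, at -0.41 and Rab34 at -0.37. For all 37 the 95% confidence interval lay within 1 log2 unit of 0.

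Priming with IFNβ gave no call against LPS alone in limma's test, where 0.600% of all genes were called. In that test 6 of the 42 members had an unadjusted p below 0.05, as had 946 of all 7669 genes. The median was -0.03 over the members and -0.02 over all genes. Differences ranged from -0.51 for Rab32 (adjusted p = 0.146) to 0.93 for Rab40b (adjusted p = 0.146), which has a SOCS box like Rab40c. Rab40b passed the filter only through this primed group, so a high value there was in part required of it. Rab19 was at 7.49 and 7.86, 0.84 above LPS alone (95% interval 0.05 to 1.63, adjusted p = 0.359). Its second probe was only 0.07 above LPS alone (adjusted p = 0.958). Rab43 was at 8.38 and 9.13, 0.63 above it (0.02 to 1.24, adjusted p = 0.379), and Rab7b 0.52 above it (0.01 to 1.03, adjusted p = 0.383).

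The primed groups were also compared with each other. Rab19 was lower after IFNγ plus LPS than after IFNβ plus LPS, with a difference of -1.96 ± 0.34 (SE) (adjusted p = 0.00189), with every array of the first group below both of the second. By its second probe the differences from LPS alone were smaller, at -0.74 with IFNγ plus LPS and 0.07 with IFNβ plus LPS. Rab7b was lower too (-1.23, adjusted p = 0.00216), at 10.04 and 10.44 with IFNβ plus LPS. These were the 2 calls, 4.76% of the family, where 13.4% of all genes were called (6.83% higher and 6.58% lower). Without array 1 the differences were -2.42 and -1.38 and 7 members were called, 1 higher (Rab38) and 6 lower (Rab21, Rab33b, Rab3d and Rab40b with the former 2). That was 16.7% of the family, below the 20.0% of all genes called in the same fit. Rab40b had passed the filter only through the IFNβ plus LPS group, so its lower value here was in part required.

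The effect of IFNγ itself differed with and without LPS for 10 members, 23.8% of the family, where 12.5% of all genes were called (6.04% higher and 6.48% lower). This interaction is the difference between IFNγ plus LPS and LPS, minus the difference between IFNγ and control. It was negative for Rab19, Rab27a, Rab13, Rab32 and Rab3d, all of which rose with IFNγ alone, and positive for Rab6b, Rab4a, Rab14, Rab8b and Rab31, all of which fell with it. Since the interaction contains the IFNγ difference with its sign turned, the opposite signs are in part built in. Without array 1 of the IFNγ plus LPS group 10 members were called, Rab13 no longer among them. That was 23.8% of the family, where 16.2% of all genes were called in the same fit.

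Rab19 had the largest interaction, -2.83 ± 0.45 (SE) (adjusted p = 0.000766), and -3.30 without array 1 (adjusted p = 3.27e-06). The IFNγ difference was 1.71 without LPS and -1.12 with LPS, and the size of the second is uncertain, since only 1 of the 3 arrays with IFNγ plus LPS detected the gene. Rab27a gave -1.82 (adjusted p = 0.014; -1.54 without array 1), and its 3 arrays with IFNγ plus LPS were at 4.86, 6.18 and 5.19 with 1 detected, against 5.35 and 5.68 with LPS and none detected, so the IFNγ difference with LPS rests on values near background. Without LPS array 2 that call ended (adjusted p = 0.0721).

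Rab32 gave -0.84 (adjusted p = 0.00606), or -0.86 without array 1. It had levels of 12.44, 12.36 and 12.36 with IFNγ plus LPS, all below the LPS arrays at 12.79 and 12.64. Rab13 gave -1.07 (adjusted p = 0.048; -1.11 and adjusted p = 0.0515 without array 1). Its levels were 7.99, 7.71 and 8.06 with IFNγ plus LPS, 7.57 and 7.81 with LPS and 7.86 to 8.04 with IFNγ alone, so that the 3 treatments overlapped. Rab3d gave -0.82 (adjusted p = 0.0383).

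Of the positive interactions, those of Rab6b (1.18, adjusted p = 0.0264) and Rab4a (1.13, adjusted p = 0.00306) rest on values below background, since neither gene was detected on any array with LPS. Rab6b was at 5.06, 4.79 and 5.08 with IFNγ plus LPS. Rab14 (0.79), Rab8b (0.77) and Rab31 (0.68) were well above background on all arrays. Rab8b was at 12.83 to 13.06 with IFNγ, below the controls at 13.38 to 13.49, and at 13.53 to 13.62 with IFNγ plus LPS, above the LPS arrays at 13.22 and 13.36. With median scaling 5 of the 10 interactions were called, and Rab13, Rab14, Rab31, Rab3d and Rab8b were not. All genes then gave 438 higher and 490 lower, in place of 463 and 497. The family's share thus lay near that of all genes. Only Rab19 and Rab32 were called in every alternative that tested them, 21 for Rab19 and 22 for Rab32. Rab19 could not be tested among genes detected on all 15 arrays.

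The interaction of Rab43 was -0.92 (adjusted p = 0.1) and that of Rab38 was 0.13 (95% interval -0.68 to 0.94, adjusted p = 0.739). For IFNβ no interaction was called in limma's test, where 0.156% of all genes were. In that test 2 of the 42 members had an unadjusted p below 0.05, as had 628 of all 7669 genes. The 2 members were Rab32, at -1.04 (adjusted p = 0.0521), and Rab40b, at 1.12 (adjusted p = 0.352). Since Rab40b was kept only through the IFNβ plus LPS group, a positive value was in part required of it.

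**Figure D4:**
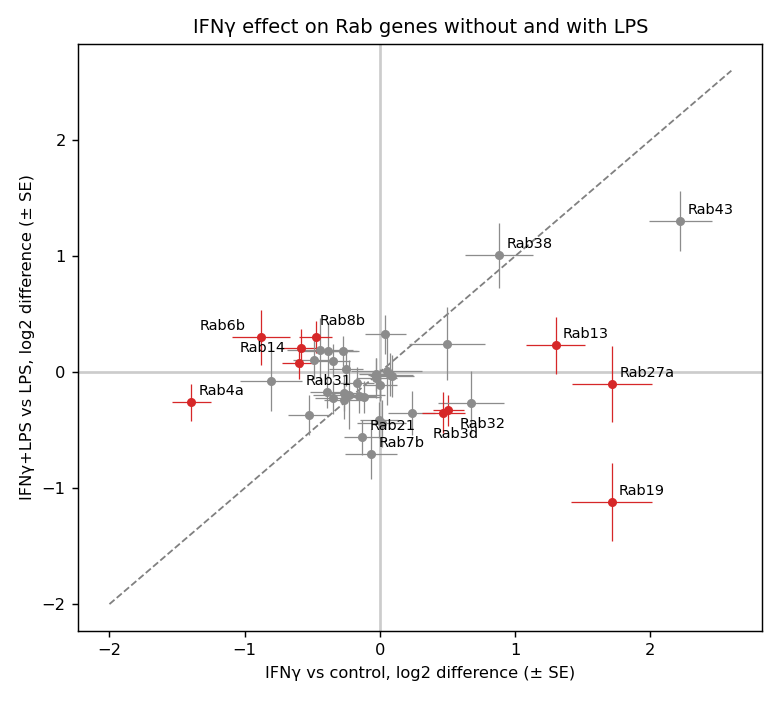
Log2 difference made by IFNγ in each of the 42 Rab genes, without LPS (horizontal axis) and with LPS (vertical axis), with standard errors. On the dashed line both are equal, and red points are the 10 genes with an interaction at an adjusted p below 0.05. Rab43 and Rab38 are high on both axes, Rab13 and Rab27a are high on the horizontal axis and near 0 on the vertical, and Rab19 is at 1.71 and -1.12.

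The genes that load, switch and read Rab proteins were listed in 4 classes. Both prenylation and extraction from membranes depend on a small class, of which 4 genes were tested, and all 4 fell with LPS: Rabggta and Rabggtb, the subunits of the transferase that attaches the lipid anchor (-1.07 and -0.74), the GDP dissociation inhibitor Gdi2 (-0.74) and the acceptor Rabac1 (-0.67). Their median was -0.74, against -0.18 over all genes, of which 34.0% were called lower. With cyclic loess and with median scaling 3 of the 4 were called, and Rabac1 was not (-0.35, adjusted p = 0.0824, and -0.19, adjusted p = 0.338). None was called with IFNγ, where Rabggta was at -0.72 (adjusted p = 0.115) and Gdi2 at -0.40.

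Of 28 exchange factors, 3 rose and 6 fell with IFNγ (32.1%, against 26.1% of all genes), and 8 rose and 5 fell with LPS (46.4%, against 55.2%). Here and in the next 2 classes, the shares called either way with IFNγ or LPS alone lie near those over all genes. Nothing about a class is read from them. Dennd6b, of a family that activates Rab14, rose by 1.09 with IFNγ (adjusted p = 0.00121) and by 2.24, 4.72-fold, with LPS (adjusted p = 1.57e-06). Dennd1a, an activator of Rab35, rose by 2.13 with LPS (adjusted p = 0.000259) and was at 0.86 with IFNγ (adjusted p = 0.0745). Rab3il1, an exchange factor of Rab3a and Rab8, was detected in controls and on no LPS array, at least 8.75-fold lower (adjusted p = 6.6e-09), and Dennd2c, an activator of Rab9, at least 2.51-fold lower (adjusted p = 1.57e-06). Of the complex that activates Rab7, Mon1b and Ccz1 rose with LPS by 1.28 and 0.52, and Mon1a was at 0.04 (adjusted p = 0.831). The Rab5 activators Rin2, Rin3, Rabgef1 and Gapvd1 fell with IFNγ (-1.13, -0.45, -0.41 and -0.52). With LPS, Rin2, Rin3 and Rabgef1 rose (0.85, 1.22 and 0.44) and Gapvd1 fell (-0.45, adjusted p = 0.0219).

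Of 25 GTPase-activating proteins, 2 rose and 6 fell with IFNγ (32%, against 26.1% of all genes), and 4 rose and 9 fell with LPS (52%, against 55.2%). Tbc1d2, which switches off Rab7, fell by 1.73 with IFNγ (adjusted p = 0.000646) and fell by 3.81, 14.1-fold, with LPS (adjusted p = 3.5e-07). The rises were Tbc1d9 (1.20) and Sgsm2, a regulator of Rab32 and Rab38 (at least 1.58-fold), with IFNγ, and with LPS Tbc1d1, which acts on Rab10 (2.13), Tbc1d13, which acts on Rab35 (1.91), Tbc1d10b (0.72) and Tbc1d9 (0.52). Tbc1d22a fell with both (-0.55 and -1.40). With IFNγ plus LPS against LPS, 6 of the 25 rose and none fell, where 6.81% of all genes were higher and 5.96% lower. Without array 1, 8 rose and none fell, where 9.33% of all genes were higher and 10.4% lower. The 6 were Tbc1d2 (1.48, or 1.68 without array 1), Tbc1d9 (0.96, or 1.07), Tbc1d14 (0.96, or 1.02) and Tbc1d23 (0.86, or 0.95), with Usp6nl and Tbc1d2b.

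Of 44 effectors, tethers and adaptors, 3 rose and 8 fell with IFNγ (25%, against 26.1% of all genes), and 8 rose and 14 fell with LPS (50%, against 55.2%). The rises with IFNγ were Exoc6, an exocyst subunit bound by Rab11 (0.90), the kinase Lrrk1 (0.88) and Unc13d, the granule-priming partner of Rab27a (0.75, adjusted p = 0.00102). Rab11fip5, a Rab11 effector, fell with IFNγ (-1.30) and with LPS (-1.72), and Rilpl2 fell with IFNγ (-1.03) and rose with LPS (0.94). With LPS the effectors Rilpl1 (1.93), Appl1, of Rab5 endosomes (1.64), and Rufy3 (1.36) rose, and Plin3, a Rab9 partner (-1.80), and Plekhm1, a Rab7 effector (-1.68), fell. Mical1, which disassembles actin, was at least 2.47-fold lower. Of the tethering complex that joins late endosomes to lysosomes, Vps18 was at -1.15 and Vps39 at least 1.63-fold lower, while Vps11, Vps16, Vps33a and Vps41 were not called (-0.41, -0.34, -0.36 and -0.28). With IFNγ plus LPS against LPS, 1 rose and 3 fell (9.09%, against 12.8% of all genes), among them Rilpl1 (-1.37, or -1.82 without array 1) and Ehbp1l1 (-1.03, or -0.97). No gene of the 4 classes was called with IFNβ, alone or before LPS, in limma's test.

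Across the 6 group means, the genes whose pattern was most like that of Rab43 by Pearson's r were Upp1, Brdt, Senp7, Stmnd1 and Gm4951, with r from 0.993 to 0.995. Upp1, the uridine phosphorylase gene, went from 4.78 in controls to 11.99 with IFNγ, 10.23 with LPS and 13.85 with both. For Rab7b they were Kdm6a, Wdr6, Fam89b, Hagh and Bckdk, with r from 0.995 to 0.998. With 6 points and 7669 genes such values describe the ranking alone.

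Of the 42 members, 29 (69%) were called in at least 1 of the 9 comparisons, as were 67.6% of all genes tested. The 13 called in none were Rab11a, Rab18, Rab22a, Rab24, Rab28, Rab33b, Rab35, Rab39, Rab39b, Rab40b, Rab4b, Rab5c and Rab6a. A second probe passed the filter for 15 members, 20 probes in all. Of the 16 values these gave for a member called in a comparison of a treated group with its control, 15 had the sign of the brighter probe and 7 were themselves called.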

How the data were processed

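The authors deposited, for 15 arrays, bead-array intensity values per probe (not normalised, per the file headers) with a detection p-value each, and a matrix of log2 values. The 15978 probes were named from the platform table, 14994 of them with 1 symbol and 984 with none. Intensities were background-corrected from the detection p-values with limma 3.58.1 (R 4.3.3), with an offset of 16, quantile normalised and put on the log2 scale. Of these probes, 11117 had a detection p below 0.01 on every array of a group. The brightest kept probe stood for each of 7669 genes, so a second probe can differ. The deposited log2 values, used as an alternative, correlated at 0.9997 or more with these on every array and differed by at most 0.19. One fit of group means to all arrays gave 9 comparisons, with Benjamini-Hochberg adjusted p-values over all genes. It was tested on simulated data. Members and lists were chosen with earlier results of these data known. Named genes are the 4 largest called rises and falls per treatment comparison and the 3 largest elsewhere, with per-array values. Other called members have differences only, and up to 4 uncalled members per comparison are named. For regulators, the rule is up to the 4 largest called each way and the 2 largest uncalled, per class and comparison. Genes named, or given with levels, beyond these rules were chosen after their values were seen. Regulators among them include Ccz1, Mon1a, Rin2, Rabgef1, Rilpl2 and the Vps genes other than Vps11 with LPS. Others are Rin3 and Rabgef1 with IFNγ, and Usp6nl and Tbc1d2b with IFNγ plus LPS. Members among them include Rab10 (its levels) and Rab7 with IFNγ, Rab8a with LPS, Rab38 in the IFNγ interaction, and Rab32 and Rab3d between the interferons. Promoter windows came from RefSeq (GRCm38.p6) and were read with Python 3.11.15. The replicate numbers gave no sign of pairing. Same-numbered arrays of different groups had deviations that correlated at a median of -0.02 over 33 pairs (-0.43 to 0.21). For arrays with different numbers the median was 0.01 over 60 pairs. With 2 or 3 arrays per group this check is weak and cannot exclude pairing. The labels give the LPS dose in a unit that could not be checked, and it is not used here.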

Additional observations from a re-analysis of the deposited data

Results flagged for a closer look

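For 10 Rab genes the effect of IFNγ with LPS differed from its effect without LPS in limma's interaction test. That was 23.8% of the family, where 12.5% of all genes were called. The interactions, in log2 units with LPS minus without, were -2.83 for Rab19, -1.82 for Rab27a, -1.07 for Rab13, -0.84 for Rab32 and -0.82 for Rab3d. They were 1.18 for Rab6b, 1.13 for Rab4a, 0.79 for Rab14, 0.77 for Rab8b and 0.68 for Rab31. With LPS, Rab6b and Rab4a were not detected on any array and Rab27a on 1, so their interactions rest on values near or below background. Those of Rab19 and Rab32 were called in every alternative that tested them, 21 for Rab19 and 22 for Rab32. Among genes below the filter, and so outside the comparisons, Rab23, which acts in cilia and Hedgehog signalling, was detected on 2 arrays, 1 with IFNγ and 1 with IFNγ plus LPS, and Rab33a was detected on 1 array, with IFNβ. Neither was detected on a control array.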

How the results depend on the processing

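Of 68 calls of a member in a comparison, 29 held in every alternative that tested them and 39 were lost in at least 1. The alternative on genes detected on all 15 arrays could test only 48 of the 68. No call changed sign. Leaving out single arrays, the members called numbered 11 to 13 for IFNγ, 18 to 21 for LPS, 1 to 8 for IFNγ plus LPS against LPS (8 without IFNγ plus LPS array 1), 5 to 11 for IFNγ against IFNβ, 2 to 7 between the primed groups and 4 to 10 for the IFNγ interaction. Of these single-array fits, shares over all genes are given above only for those without IFNγ array 1 or IFNγ plus LPS array 1. Nothing about the family is read from the other counts. IFNβ against control, with none called, gave 1 without background correction, on genes detected on all 15 arrays and with array weights. In that order, all genes gave 82 higher and 20 lower, 70 and 13, and 136 and 62, in place of 72 and 14. IFNγ plus LPS against LPS, with 5, gave 3 on genes detected on all arrays, where fewer genes are tested, and 1 on the LPS slide alone. Over all genes these were 380 higher and 367 lower, and 264 and 104, in place of 522 and 457. IFNγ against IFNβ, with 13, gave 8 with cyclic loess and 21 with array weights. All genes moved as well, from 734 higher and 840 lower to 825 and 678, and to 1146 and 1454. The primed groups, with 2 calls, gave 5 without background correction and 4 with an offset of 50. Among all genes it was 590 higher and 620 lower, and 563 and 576, in place of 524 and 505. The IFNγ interaction, with 10, gave 5 with median scaling and 6 on genes detected on all arrays. For all genes the counts were 438 higher and 490 lower, and 414 and 450, in place of 463 and 497. The IFNβ interaction, with none, gave 1 without background correction, with the offset of 50 and on genes detected on all arrays. In that order, all genes gave 3 higher and 19 lower, 3 and 17, and 2 and 23, in place of 2 and 10. With the replicate number as a replicate block, IFNγ plus LPS against LPS gave 1 and the IFNγ interaction 6, and 12 of the 68 calls were lost. All genes then gave 376 higher and 300 lower, and 337 and 423. An alternative chosen after seeing the data left out IFNγ plus LPS array 1 and IFNγ array 1, those of lowest array weight, together. It gave 8 calls for IFNγ plus LPS against LPS, 7 between the primed groups and 1 for the IFNβ interaction. All genes gave 828 higher and 920 lower, 908 and 905, and 8 and 23. Since all-gene counts moved too, these shifts are not read as particular to the family. The causes were not tested. Groups of 2 or 3 arrays limit all comparisons. Probes near background (Rab4a, Rab6b, Rab27a, Rab42, and Rab19 with IFNγ plus LPS) understate differences between groups. In an interaction, values held at background can shrink or enlarge the result, and which of these occurred was not tested. The scalings applied to the regulator classes were also chosen after seeing the data.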
